A study of Mus musculus with 14 samples.

Results

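The 36 genes described here encode the enzymes that turn glucose into pyruvate and lactate, the carriers that bring glucose in and let lactate out, and the kinases, phosphatases and synthase that set where the carbon goes next. They were taken by symbol from a list that covers every step of the route, with the isoforms of each step side by side, and all 36 were found among the 55367 gene symbols counted. The rule itself uses symbols alone. RNA was sequenced from mouse lineage-negative bone marrow cells, a fraction depleted of mature blood cells, of wild-type genotype and kept in medium with SCF, IL6 and IL3. A first set of cells had received a lentivirus carrying luciferase as a control (n = 3) or SETBP1-D868N (n = 3), a leukaemia-associated mutant of the nuclear protein SETBP1. In a second experiment, cells that all carried SETBP1-D868N were given DMSO (n = 4) or 2.5 µM PF-9363 (n = 4), an inhibitor of MYST family histone acetyltransferases, for 4 days. The mutant was expressed from a virus rather than from its own locus, and both arms of the second experiment carried it, so the drug was not measured in cells without it. The labels do not say whether replicates came from separate mice or cultures, and p-values measure the spread between these libraries, which may be technical.

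Glycolysis splits glucose into pyruvate in the cytosol and yields ATP without oxygen. Glucose enters through SLC2A carriers (GLUT proteins), is trapped as glucose 6-phosphate by hexokinases, and passes the committed step at phosphofructokinase, which the PFKFB enzymes tune through fructose 2,6-bisphosphate. Lactate dehydrogenase turns pyruvate into lactate, which leaves through the monocarboxylate carriers encoded by Slc16a1 (MCT1) and Slc16a3 (MCT4), while pyruvate dehydrogenase kinases (PDKs) hold pyruvate back from the mitochondrion. Many of these genes are known targets of the hypoxia-inducible factors and of MYC, and haematopoietic stem and myeloid cells are known for leaning on this route.

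The libraries held 60147266 to 68730322 counts in the SETBP1-D868N experiment and 7083731 to 10359093 in that with PF-9363, so low genes were measured less precisely with PF-9363. Levels are CPM (counts scaled to the library total, after TMM scaling), and levels of the 2 experiments are not compared, since they differed in RNA input (500 or 100 ng), library preparation and depth. Marker genes moved with both conditions. Of all genes tested, 24.5% were called higher and 22.7% lower with SETBP1-D868N, and 36.6% higher and 39.4% lower with PF-9363. Summed over 10 macrophage genes, the level was 2587 to 2717 CPM with luciferase and 1542 to 1745 CPM with SETBP1-D868N, and all 10 were called lower. The same sum was 1674 to 1907 CPM with DMSO and 9223 to 11023 CPM with PF-9363, and all 10 were called higher. Over 10 neutrophil genes the sum was 24588 to 25629.5 CPM with luciferase and 16363 to 18873 CPM with SETBP1-D868N, with 3 called higher and 7 lower, and 18233 to 21524 CPM with DMSO and 16598 to 18018 CPM with PF-9363, with 3 higher and 4 lower. The primary granule genes Elane, Mpo and Prtn3, named for the size of their change, were among the 4 lower. Their means were 1453, 2320.3 and 1054 CPM with DMSO and 1.75, 6.35 and 7.31 CPM with PF-9363. They do not stand for the list, in which 3 others rose, 3 were not called and the median log2 fold change was −0.042. Mast cell and basophil genes had 4 of 10 higher and 6 lower with SETBP1-D868N (sum 5280.4 to 5484 CPM with luciferase and 5687 to 5807 CPM with SETBP1-D868N), and 9 of 10 higher with PF-9363 (sum 1195 to 1538 CPM with DMSO and 4589.9 to 5546 CPM with PF-9363). Cell division genes had 11 of 16 called higher with SETBP1-D868N (sum 3779 to 4004 CPM with luciferase and 3993 to 4207 CPM with SETBP1-D868N) and 16 of 16 lower with PF-9363 (sum 3353 to 3649 CPM with DMSO and 535 to 919 CPM with PF-9363). Eosinophil genes had 2 of 5 lower with SETBP1-D868N (sum 669 to 723 CPM with luciferase and 535 to 667 CPM with SETBP1-D868N) and 5 of 5 lower with PF-9363 (sum 608 to 799 CPM with DMSO and 237 to 332 CPM with PF-9363). Megakaryocyte genes had 1 of 6 higher and 4 lower with SETBP1-D868N (sum 400.1 to 415 CPM with luciferase and 356 to 391 CPM with SETBP1-D868N), and 3 of 4 tested higher and 1 lower with PF-9363 (sum 46.8 to 58.8 CPM with DMSO and 218 to 239 CPM with PF-9363). Stem and progenitor genes had 5 of 8 higher and 3 lower with SETBP1-D868N (sum 984 to 1015 CPM with luciferase and 1181 to 1229 CPM with SETBP1-D868N), and 3 higher and 2 lower with PF-9363 (sum 494 to 505 CPM with DMSO and 576 to 639.8 CPM with PF-9363). B and T lymphoid genes summed to at most 10.3 CPM in any library. The part of these shifts in the results below was not tested. In RNA from bulk cells, fewer cells of a type and less RNA per cell cannot be told apart.

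SETBP1-D868N cells had lower levels than luciferase cells of most of the transcripts tested. No phosphofructokinase gene was called lower in the fit used throughout, though several other settings called Pfkl and Pfkp lower. Hk3, the leading hexokinase, was not called. Of the 36 genes, 35 passed the filter on low counts. Of these, 22 fell, 4 rose and 9 were not called (edgeR's quasi-likelihood test, Benjamini-Hochberg adjusted p under 0.05), so 74.3% were called against 47.2% of the 15794 genes tested. For the falls alone the background was 22.7% and for the rises 24.5%. The median log2 fold change was −0.26, against 0.0043 over all genes. In 26 of the 35 the groups did not overlap, against 56.7% of all genes. Summed over the 36 genes, the level was 15339 to 16345 CPM with luciferase and 12586 to 14176 CPM with SETBP1-D868N. Changes past 2-fold were rare in the whole comparison, where 1.34% of all genes rose and 2.48% fell by that much. Of the 35, only Aldoc moved by more than 2-fold. The median absolute log2 fold change was 0.28 for the 35 and 0.19 for all genes. Over all genes, 3869 were called higher and 3579 lower, and scaling by library size alone gave 4905 and 2997. With that scaling 19 of the 35 fell and 7 rose.

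**Figure D1:**
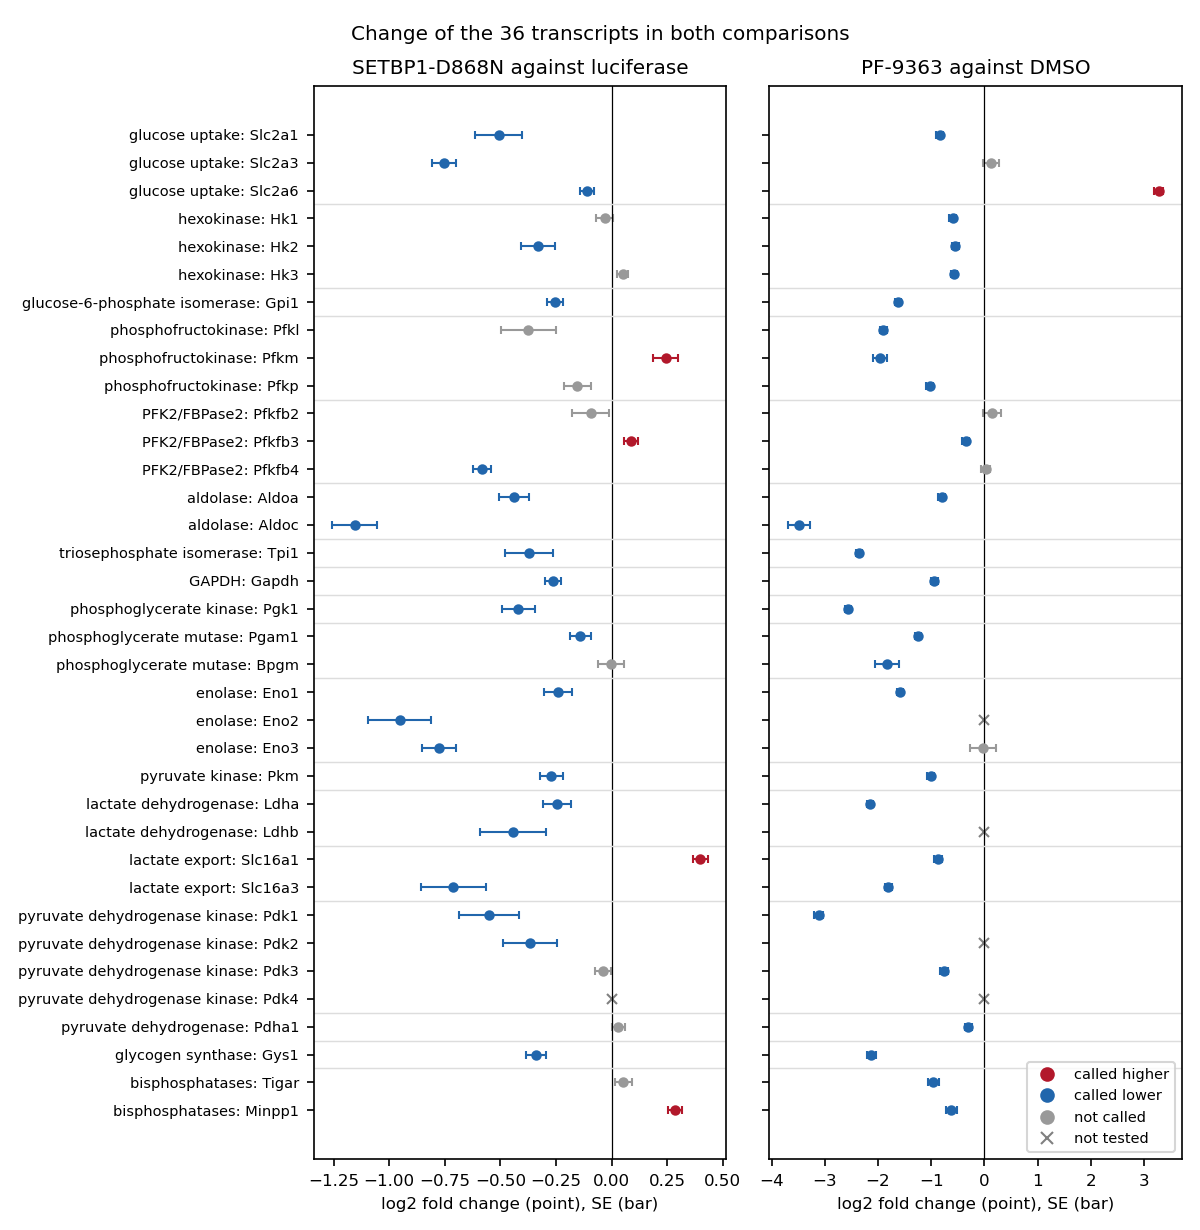
Log2 fold change of each of the 36 genes, ordered by step from glucose uptake at the top to the bisphosphatases at the bottom, for SETBP1-D868N against luciferase (left, n = 3 each) and PF-9363 against DMSO (right, n = 4 each). Points are edgeR estimates, bars are 1 SE, blue and red mark genes called lower and higher, and crosses mark genes that were not tested; the horizontal scales differ, and most points lie left of 0 in both panels, with Slc2a6 far to the right in the second.

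Glucose carriers fell. Slc2a3 (GLUT3, a high-affinity carrier; GRCm38 chr6:122727809-122801640, minus strand) was at 264, 290.2 and 292 CPM with luciferase and 163, 161 and 178 CPM with SETBP1-D868N. The groups did not overlap, and the gene fell by 0.75 ± 0.052 on the log2 scale (SE; edgeR adjusted p = 1.11e-05). Slc2a1 (GLUT1, the common basal carrier; chr4:119108711-119137983, plus strand) was at 147, 166 and 163 CPM with luciferase and 101, 107 and 128 CPM with SETBP1-D868N. It fell by 0.51 ± 0.11 (edgeR adjusted p = 0.0159), again without overlap, and the third SETBP1-D868N library lay nearest to the controls. Slc2a6 (GLUT6, a carrier known from lysosomes of macrophages; chr2:27021363-27027998, minus strand) was at 114, 119 and 118 CPM with luciferase and 112, 105 and 109 CPM with SETBP1-D868N, a fall of 0.11 ± 0.031 (edgeR adjusted p = 0.0123). All 3 carriers were thus called lower, Slc2a6 by the least. The Slc2a1 call was lost without luciferase 3 or without SETBP1-D868N 2. That of Slc2a6 was lost without luciferase 2 or luciferase 3, and with scaling by library size alone.

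Among hexokinases, only Hk2, the inducible form, was called. It was at 172, 174 and 174 CPM with luciferase and 128, 131 and 155 CPM with SETBP1-D868N and fell by 0.33 ± 0.076 (edgeR adjusted p = 0.014). Hk3, a myeloid form with the highest level per kilobase of the 3, was at 636, 613 and 629 CPM with luciferase and 658, 634 and 652 CPM with SETBP1-D868N, and the groups overlapped (0.0498 ± 0.025, edgeR adjusted p = 0.128). Hk1, the housekeeping form, had a log2 fold change of −0.032 ± 0.036 with a 95% interval of −0.10 to 0.039 (edgeR adjusted p = 0.507). The next enzyme, the isomerase Gpi1, fell from 1403 ± 44.9 to 1176 ± 59.4 CPM (mean ± SD, n = 3), by 0.25 ± 0.037 (edgeR adjusted p = 0.000257).

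The phosphofructokinase genes did not move as one. Pfkm, named for the muscle form and the least abundant of the 3, rose by 0.24 ± 0.056, from 20.9, 22.2 and 22.1 to 27.7, 23.9 and 25.6 CPM (edgeR adjusted p = 0.00352). Pfkl, the liver form and the highest of the 3 per kilobase, was at 241, 265 and 272 CPM with luciferase and 183, 183 and 234 CPM with SETBP1-D868N. Its groups did not overlap, yet its change of −0.38 ± 0.12 missed the threshold (edgeR adjusted p = 0.0681), and DESeq2, limma-voom, edgeR without robust estimation and the fit with a replicate term called it lower. Pfkp, the platelet form, was at 313, 319 and 322 CPM with luciferase and 265, 278 and 314 CPM with SETBP1-D868N and was not called (−0.15 ± 0.062, edgeR adjusted p = 0.087). The same settings, and the fit with no filter beyond 1 count, called Pfkp lower. Without SETBP1-D868N 3, both Pfkl and Pfkp were called lower. Of the PFKFB enzymes, which make and break the activator of phosphofructokinase, Pfkfb4 was at 76.9, 77.3 and 79.2 CPM with luciferase and 54.6, 52.3 and 48.9 CPM with SETBP1-D868N. It fell by 0.58 ± 0.039 (edgeR adjusted p = 3.28e-07), the groups lying far apart. Pfkfb3, the isoform with the strongest kinase bias, was at 116, 119.7 and 115 CPM with luciferase and 125, 119.8 and 128 CPM with SETBP1-D868N. Its rise of 0.085 ± 0.031 (edgeR adjusted p = 0.0405) was the smallest called and was lost with DESeq2, with RLE size factors, without robust estimation, with a replicate term and without any of 5 of the 6 libraries. Pfkfb2 was not called (−0.095 ± 0.084, edgeR adjusted p = 0.387).

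The largest fall of the 36 was that of Aldoc (aldolase C; chr11:78322968-78327781, plus strand), a minor isoform of the enzyme that splits fructose 1,6-bisphosphate. It was at 47.2, 52.5 and 52.6 CPM with luciferase and 20.3, 21.9 and 26.1 CPM with SETBP1-D868N. The groups did not overlap, and the log2 fold change was −1.16 ± 0.1 (edgeR adjusted p = 0.000164), or 2.23-fold. Aldoa, the main aldolase, was at 2142, 2283 and 2287 CPM with luciferase and 1602, 1539 and 1814 CPM with SETBP1-D868N and fell by 0.44 ± 0.068 (edgeR adjusted p = 0.00294). From triose phosphate to pyruvate every main enzyme was lower. Tpi1 fell by 0.37 ± 0.11, Gapdh by 0.26 ± 0.035, Pgk1 by 0.42 ± 0.075, Pgam1 by 0.14 ± 0.047, Eno1 by 0.24 ± 0.063 and Pkm by 0.27 ± 0.054 on the log2 scale. Of these, Gapdh, Pgk1 and Pkm kept the call without any single library, while Tpi1 (edgeR adjusted p = 0.0449) lost it without 5 of the 6 libraries, and Pgam1 and Eno1 without 4 of the 6. Pgk1 (phosphoglycerate kinase, the first ATP-yielding step) was at 409, 434 and 446 CPM with luciferase and 307, 301 and 356 CPM with SETBP1-D868N, and Eno1, the main enolase, at 1212, 1300.2 and 1307 CPM with luciferase and 1034, 1019 and 1176 CPM with SETBP1-D868N. Pgam1 was at 148, 163 and 156 CPM with luciferase and 133, 140.5 and 149 CPM with SETBP1-D868N, where the groups overlapped. Bpgm, which makes 2,3-bisphosphoglycerate in red cells, was not called (−0.0034 ± 0.057, 95% interval −0.12 to 0.11).

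The minor enolases fell further than Eno1. Eno3, the muscle form, was at 12.2, 11.1 and 10.5 CPM with luciferase and 7.07, 6.21 and 6.40 CPM with SETBP1-D868N and fell by 0.78 ± 0.077 (edgeR adjusted p = 6.41e-06). Eno2, the neuronal form, was at 2.29, 2.90 and 2.85 CPM with luciferase and 1.54, 1.30 and 1.31 CPM with SETBP1-D868N and fell by 0.95 ± 0.14 (edgeR adjusted p = 0.000152). Both lay without overlap, at levels far below Eno1.

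At the lactate end, the main dehydrogenase and the main exporter fell while the second carrier rose. Ldha was at 1535, 1628 and 1674 CPM with luciferase and 1294, 1301 and 1486 CPM with SETBP1-D868N and fell by 0.25 ± 0.064 (edgeR adjusted p = 0.0223). Ldhb, the isoform that favours the reverse reaction, was near 2 CPM and fell by 0.44 ± 0.15 (edgeR adjusted p = 0.0273). Slc16a3 (MCT4, the low-affinity lactate exporter; chr11:120948480-120960868, plus strand) was at 349.7, 395 and 394 CPM with luciferase and 208, 209.7 and 278 CPM with SETBP1-D868N. It fell by 0.71 ± 0.15 (edgeR adjusted p = 0.0182), without overlap, the third SETBP1-D868N library again nearest to the controls. Slc16a1 (MCT1, which carries lactate both ways; chr3:104638668-104658462, plus strand) was at 115, 115 and 117 CPM with luciferase and 159, 146 and 151 CPM with SETBP1-D868N. Each mutant library lay above each control, and Slc16a1 rose by 0.40 ± 0.034 (edgeR adjusted p = 1.76e-06), the largest rise of the 36. Bsg, which encodes the chaperone basigin that both carriers need at the cell surface, fell by 0.14 ± 0.0302 (edgeR adjusted p = 0.00237).

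Among the genes that set the fate of pyruvate and of glucose 6-phosphate, Pdk1 was at 78.2, 89.8 and 92.8 CPM with luciferase and 53.7, 54.7 and 69.4 CPM with SETBP1-D868N and fell by 0.55 ± 0.13 (edgeR adjusted p = 0.0276). Pdk2 fell by 0.37 ± 0.12 from a level under 3 CPM (edgeR adjusted p = 0.0251). Both calls, like those of Ldha and Slc16a3, were lost when luciferase 2, luciferase 3, SETBP1-D868N 1 or SETBP1-D868N 2 was left out, and those of Pdk1 and Ldha also with no filter beyond 1 count. Pdk3, the highest PDK here per kilobase, was at 80.9, 86.7 and 86.1 CPM with luciferase and 79.0, 84.9 and 83.1 CPM with SETBP1-D868N and was not called (−0.039 ± 0.037, edgeR adjusted p = 0.42). Pdk4 had at most 0.0452 CPM in any luciferase or SETBP1-D868N library and was not tested. The target of these kinases, the pyruvate dehydrogenase subunit gene Pdha1, was not called (0.031 ± 0.028, edgeR adjusted p = 0.396). Gys1, the glycogen synthase, fell by 0.34 ± 0.045 (edgeR adjusted p = 0.000159). Minpp1, a phosphatase that removes a phosphate from 2,3-bisphosphoglycerate, was at 36.8, 36.9 and 37.1 CPM with luciferase and 45.4, 45.3 and 44.1 CPM with SETBP1-D868N and rose by 0.28 ± 0.033 (edgeR adjusted p = 2.24e-05). Tigar, a fructose bisphosphatase that slows glycolysis, was at 32.4, 33.0 and 33.3 CPM with luciferase and 34.8, 33.1 and 34.5 CPM with SETBP1-D868N and was not called (0.053 ± 0.038, edgeR adjusted p = 0.276).

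Many of these calls leaned on single libraries. Of the 26 calls, 14 held without each library in turn, 11 of them falls: Slc2a3, Gpi1, Pfkfb4, Aldoa, Aldoc, Gapdh, Pgk1, Eno2, Eno3, Pkm and Gys1. Without luciferase 1, 2 or 3, the number of falls among the 35 was 19, 14 and 12. Over all genes, 3331 of 16076, 3106 of 16100 and 3119 of 16120 then fell. Without SETBP1-D868N 1, 2 or 3, it was 15, 14 and 24 among the 35. Over all genes, 3344 of 16130, 3312 of 16139 and 3480 of 16142 then fell. SETBP1-D868N 3 was the highest of its group for 21 of the 35 genes. Luciferase 1 was the lowest of its group for 28 of the 35, so both lay toward the other group.

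**Figure D2:**
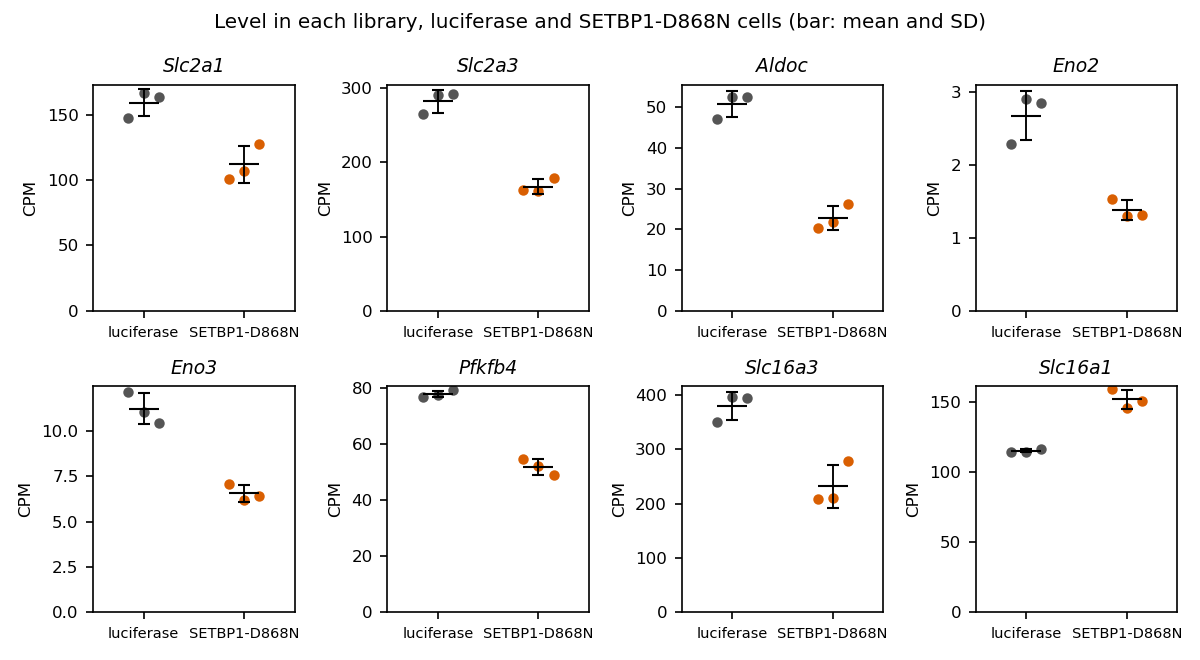
Level in CPM of 8 genes in each of the 3 luciferase and 3 SETBP1-D868N libraries, on axes that start at 0; points are libraries, in replicate order, and the black bar is the mean with its SD. Slc2a1, Slc2a3, Aldoc, Eno2, Eno3, Pfkfb4 and Slc16a3 are lower in every SETBP1-D868N library, while Slc16a1 is higher in every one.

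With PF-9363 most genes of the route fell, while Slc2a6 rose and Slc2a3, Pfkfb2, Pfkfb4 and Eno3 were not called. Of 32 genes that passed the filter, 27 fell, 1 rose and 4 were not called, so 87.5% were called against 76.0% of the 13456 genes tested. The background was 39.4% for falls and 36.6% for rises. The median log2 fold change was −0.95, against −0.038 over all genes, in 28 of the 32 the groups did not overlap, against 70.3% of all genes, and 15 fell by at least 2-fold, against 18.1% of all genes. The summed level of the 36 genes was 24202 to 26464 CPM with DMSO and 10401 to 10760.0 CPM with PF-9363. Over all genes, 4921 were called higher and 5307 lower, and scaling by library size alone gave 3775 and 6653, since it shifted the median of all genes by −0.23 on the log2 scale. Of the 32, 28 fell and 1 rose with that scaling. All 28 calls held without each library in turn and under each other setting tried.

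Glucose carriers moved apart. Slc2a6 (GLUT6) was the only one of the 32 that rose, at 19.5, 23.5, 17.2 and 18.1 CPM with DMSO and 200.0, 192, 179.8 and 188 CPM with PF-9363. The lowest treated library held several times the level of the highest control, and the log2 fold change was 3.28 ± 0.083 (edgeR adjusted p = 2.22e-23), or 9.70-fold. Slc2a1 (GLUT1) was at 209.6, 217, 209.5 and 219 CPM with DMSO and 112, 106, 120.5 and 137 CPM with PF-9363 and fell by 0.84 ± 0.069 (edgeR adjusted p = 6.67e-12). Slc2a3 (GLUT3) was at 179, 244, 202 and 294 CPM with DMSO and 246, 234, 268 and 252 CPM with PF-9363. Its DMSO libraries spread widely and overlapped the treated ones (0.12 ± 0.15, 95% interval −0.17 to 0.42, edgeR adjusted p = 0.486), and without DMSO 4 it was called higher.

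The 3 hexokinases fell by nearly the same amount. Hk3 was at 855, 823, 859.6 and 852 CPM with DMSO and 620.2, 572, 540.4 and 543 CPM with PF-9363 and fell by 0.57 ± 0.0597 (edgeR adjusted p = 9.41e-10). Hk1 fell by 0.60 ± 0.072 (edgeR adjusted p = 3.53e-08) and Hk2 by 0.55 ± 0.065 (edgeR adjusted p = 1.15e-08). Gpi1, the isomerase that follows, was at 1736, 1695, 1682 and 1869 CPM with DMSO and 569.9, 588, 549 and 556 CPM with PF-9363, far below the controls in every treated library, and fell by 1.63 ± 0.061 (edgeR adjusted p = 1.02e-19).

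Phosphofructokinase genes all fell. Pfkl was at 293, 265, 297 and 296 CPM with DMSO and 84.1, 76.6, 81.4 and 66.4 CPM with PF-9363, a fall of 1.90 ± 0.071 (edgeR adjusted p = 1.22e-19). Pfkm was at 27.5, 25.8, 24.1 and 28.3 CPM with DMSO and 6.39, 6.96, 6.07 and 7.59 CPM with PF-9363, a fall of 1.96 ± 0.13 (edgeR adjusted p = 5.02e-14). Pfkp was at 445, 444, 455 and 463 CPM with DMSO and 215, 206, 241 and 222 CPM with PF-9363 and fell by less, 1.03 ± 0.0605 (edgeR adjusted p = 3.68e-15). The PFKFB enzymes moved little by comparison. Pfkfb3 was at 112, 104, 103 and 107 CPM with DMSO and 88.3, 79.5, 86.1 and 81.8 CPM with PF-9363 and fell by 0.35 ± 0.066 (edgeR adjusted p = 2.93e-05). Pfkfb4 was at 38.1, 36.6, 39.1 and 37.3 CPM with DMSO and 37.8, 40.0, 38.8 and 37.0 CPM with PF-9363, with overlapping groups (0.021 ± 0.085, 95% interval −0.14 to 0.19, edgeR adjusted p = 0.83). It was called lower (−0.21) when scaled by library size alone. Pfkfb2 was not called either (0.14 ± 0.17, edgeR adjusted p = 0.449).

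In the middle of the route, Aldoc, Pgk1 and Tpi1 fell by more than 5-fold, and Aldoa and Gapdh by less than the median of the 32. Aldoc was at 83.3, 98.4, 82.7 and 131 CPM with DMSO and 9.06, 11.3, 7.16 and 7.70 CPM with PF-9363. Its log2 fold change of −3.48 ± 0.21 (edgeR adjusted p = 2.48e-07), or 11.2-fold, was the largest fall of the 32. Aldoa was at 2509, 2435, 2491 and 2667 CPM with DMSO and 1324, 1454, 1435 and 1589.9 CPM with PF-9363 and fell by 0.80 ± 0.064 (edgeR adjusted p = 3.54e-12), so the main aldolase fell by far less than Aldoc. Pgk1 (chrX:106187100-106203699, plus strand) was at 2335, 2297, 2390.5 and 2678 CPM with DMSO and 410.5, 401, 418 and 412 CPM with PF-9363. It fell by 2.56 ± 0.065 (edgeR adjusted p = 2.13e-23), or 5.91-fold, with a narrow spread in both groups. Tpi1 (triosephosphate isomerase; chr6:124810586-124814296, minus strand) was at 1323, 1210.0, 1467 and 1330.2 CPM with DMSO and 271, 261, 254 and 255 CPM with PF-9363 and fell by 2.36 ± 0.066 (edgeR adjusted p = 1.4e-22), or 5.12-fold. Gapdh, between them in the route and often used as a reference gene, was at 4495, 4438, 4699 and 4736 CPM with DMSO and 2299, 2381, 2373 and 2512 CPM with PF-9363 and fell by 0.94 ± 0.0604 (edgeR adjusted p = 2.88e-14), or 1.92-fold.

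The main enzymes of lower glycolysis fell as well. Eno1 was at 3132, 2937, 3019 and 3148 CPM with DMSO and 975, 1026, 1025 and 1056 CPM with PF-9363 and fell by 1.58 ± 0.0602 (edgeR adjusted p = 1.65e-19). Pgam1 was at 423, 407, 438 and 398 CPM with DMSO and 167, 169, 181 and 185 CPM with PF-9363 and fell by 1.25 ± 0.061 (edgeR adjusted p = 4.79e-17). Pkm, the pyruvate kinase, was at 2735, 2471, 2547 and 2853 CPM with DMSO and 1339, 1246, 1363 and 1312 CPM with PF-9363 and fell by 1.01 ± 0.063 (edgeR adjusted p = 1.33e-14). In these 3 main enzymes of the lower route no treated library reached the lowest control. Bpgm was at 10.1, 9.08, 8.62 and 9.71 CPM with DMSO and 3.19, 3.74, 1.71 and 1.74 CPM with PF-9363 and fell by 1.83 ± 0.22 (edgeR adjusted p = 1.68e-08). Eno3 was at 5.26, 4.69, 4.96 and 4.72 CPM with DMSO and 7.11, 5.16, 4.36 and 2.49 CPM with PF-9363, where the treated libraries spread on both sides of the controls, and was not called (−0.029 ± 0.24, 95% interval −0.50 to 0.45). Eno2 had at most 0.937 CPM and was not tested.

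Transcripts for lactate production and export fell together. Ldha (chr7:46841475-46855627, plus strand) was at 2116, 1993, 2157 and 2174 CPM with DMSO and 474, 477, 494 and 462 CPM with PF-9363. It fell by 2.15 ± 0.061 (edgeR adjusted p = 2.16e-22), or 4.43-fold, and each group was tight. Ldhb had at most 0.454 CPM and was not tested. Slc16a3 (MCT4) was at 559, 503, 545 and 581 CPM with DMSO and 153, 149.9, 163 and 158 CPM with PF-9363 and fell by 1.81 ± 0.062 (edgeR adjusted p = 1.65e-20). Slc16a1 (MCT1) was at 87.5, 85.0, 80.9 and 89.1 CPM with DMSO and 39.8, 48.9, 50.4 and 47.9 CPM with PF-9363 and fell by 0.88 ± 0.079 (edgeR adjusted p = 4.61e-11). Both carriers were thus lower in all 4 treated libraries. Their chaperone Bsg fell from 471 ± 31.6 to 167 ± 12.6 CPM (mean ± SD, n = 4), by 1.49 ± 0.066 (edgeR adjusted p = 6.41e-18).

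Pdk1, the gatekeeper kinase of pyruvate dehydrogenase (chr2:71873224-71903858, plus strand), was at 262, 276, 245 and 272 CPM with DMSO and 35.9, 27.8, 32.1 and 25.7 CPM with PF-9363. It fell by 3.12 ± 0.084 (edgeR adjusted p = 3.46e-22), or 8.68-fold, second to Aldoc. Pdk3 was at 61.2, 57.1, 58.1 and 56.1 CPM with DMSO and 33.2, 33.0, 36.9 and 34.6 CPM with PF-9363 and fell by 0.76 ± 0.081 (edgeR adjusted p = 1.82e-09). Pdk2 had at most 2.45 CPM and Pdk4 at most 0.297 CPM, and neither was tested. In the PF-9363 libraries Pdk4 had no count, which allows up to 0.290 to 0.424 CPM per library (3 counts, counting error only). Pdha1 fell by 0.30 ± 0.065 (edgeR adjusted p = 0.000137), the smallest fall called. Gys1, the glycogen synthase, was at 256, 276, 241 and 290.1 CPM with DMSO and 64.0, 70.9, 57.1 and 51.7 CPM with PF-9363 and fell by 2.12 ± 0.084 (edgeR adjusted p = 1.63e-16). Of the bisphosphatases, Tigar was at 39.8, 49.2, 35.6 and 42.5 CPM with DMSO and 23.3, 21.3, 18.2 and 22.5 CPM with PF-9363 and fell by 0.96 ± 0.11 (edgeR adjusted p = 4.31e-09). Minpp1 was at 30.5, 28.9, 29.0 and 27.1 CPM with DMSO and 19.3, 21.0, 17.4 and 17.2 CPM with PF-9363 and fell by 0.62 ± 0.11 (edgeR adjusted p = 5.08e-06).

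**Figure D3:**
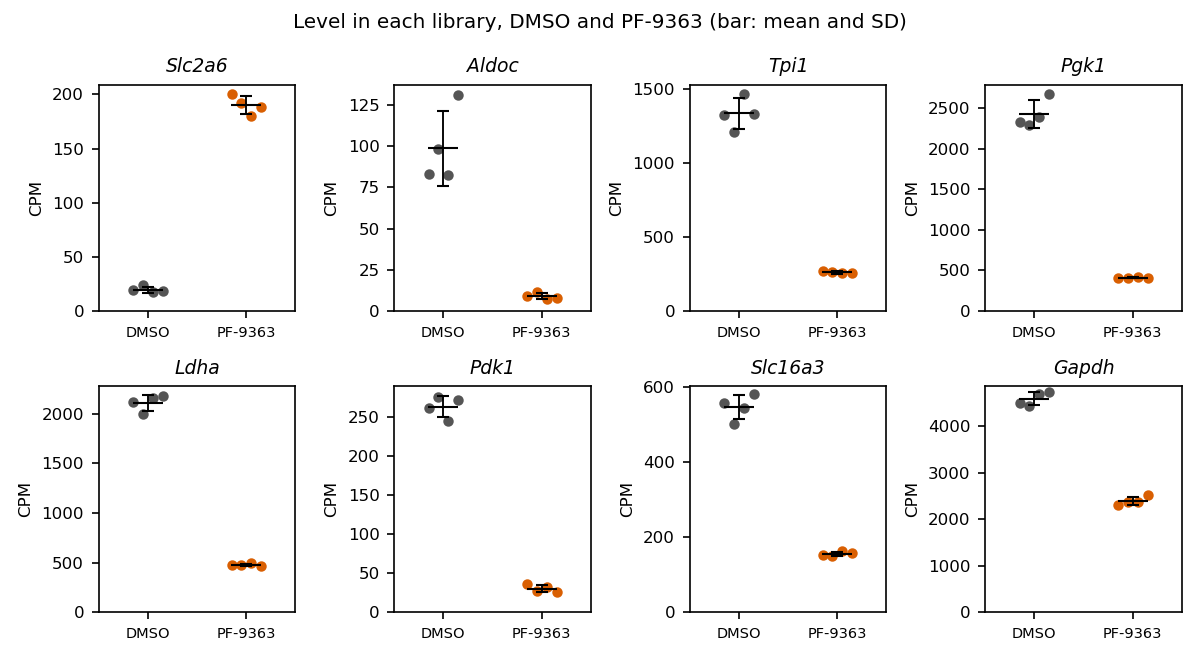
Level in CPM of 8 genes in each of the 4 DMSO and 4 PF-9363 libraries, on axes that start at 0; points are libraries, in replicate order, and the black bar is the mean with its SD. Slc2a6 is higher in every PF-9363 library and the other 7 genes are lower in every one.

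The 2 experiments share no library. Of the 32 genes tested in both, 15 fell in both, which is 46.9%, against 4.40% of the 12376 genes tested in both. A further 4 (Pfkm, Pfkfb3, Slc16a1 and Minpp1) rose with SETBP1-D868N and fell with PF-9363, which was the pattern of 2240 of all genes. Slc2a6 was the only one that fell first and rose second, as 2084 of all genes did, 8 of the 32 were not called with SETBP1-D868N and fell with PF-9363, against 2197 of the 12376, and 3 (Slc2a3, Pfkfb4 and Eno3) fell with SETBP1-D868N and were not called with PF-9363, against 470. None rose in both, against 576 genes. The genes were chosen with these data known, and the counts carry no test.

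Isoforms of 1 step were then compared by their log2 ratio within a library, which does not depend on how libraries are scaled. There were 18 ratios, of which 17 (SETBP1-D868N) and 14 (PF-9363) had a mean of at least 10 counts for both genes. With SETBP1-D868N, 13 of the 17 differed without overlap between groups, each at an exact two-sided permutation p = 0.1, the smallest that 3 against 3 allows. With PF-9363, 8 of the 14 did, each at exact p = 0.0286, the smallest that 4 against 4 allows. These p-values are not adjusted for the number of ratios, and those of SETBP1-D868N cannot pass 0.05, so its ratio differences are given as values only. Among levels of all genes, 56.7% did not overlap between groups with SETBP1-D868N and 70.3% with PF-9363.

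Of the 14 ratios, that of Slc2a6 to Slc2a1 moved most with the drug. For each Slc2a1 count there were 0.0914 Slc2a6 counts with DMSO and 1.60 with PF-9363, a log2 difference of 4.13 ± 0.14 (SE). Per kilobase of exon, Slc2a1 made up 62.0% ± 3.9 (SD) of the 3 carriers with DMSO and 26.5% ± 2.2 with PF-9363, and Slc2a6 6.21% ± 0.88 and 46.4% ± 2.7. By mean share the leading carrier transcript thus passed from Slc2a1 to Slc2a6. The lead also passed so with SETBP1-D868N, where the ranges of the 2 shares overlapped. Slc2a1 made up 37.5% ± 0.65 with luciferase and 35.8% ± 2.4 with SETBP1-D868N, and Slc2a6 30.3% ± 0.83 and 38.2% ± 2.3. With SETBP1-D868N the ratio of Slc2a6 to Slc2a1 moved by 0.40 ± 0.11, and Slc2a3 differed against Slc2a1 by −0.24 ± 0.061. In the hexokinase step no shift with the drug was detected. Hk3 made up 74.8% ± 1.2 with DMSO and 74.8% ± 0.26 with PF-9363, and the ratios of Hk2 and Hk3 to Hk1 differed by 0.059 ± 0.10 (exact permutation p = 0.6) and 0.029 ± 0.057 (exact permutation p = 0.629). With SETBP1-D868N, Hk2 was lower against Hk1 by 0.30 ± 0.051.

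Phosphofructokinase passed from Pfkl to Pfkp with PF-9363. Pfkl made up 50.8% ± 1.2 of the step with DMSO and 38.4% ± 2.9 with PF-9363, Pfkp 39.8% ± 0.93 and 54.9% ± 2.4, and their log2 ratio differed by 0.87 ± 0.091. With SETBP1-D868N Pfkm was higher against Pfkl, by 0.62 ± 0.14, its share going from 9.42% ± 0.12 to 13.1% ± 1.7. Pfkfb3 was higher against Pfkfb4 with SETBP1-D868N, by 0.67 ± 0.068, and lower with PF-9363, by −0.37 ± 0.061. PDK isoforms changed places. Pdk1 made up 59.5% ± 1.7 of the 4 with DMSO and 22.3% ± 2.9 with PF-9363, while Pdk3 made up 39.8% ± 1.9 and 76.9% ± 2.4. Their log2 ratio, Pdk3 to Pdk1, differed by 2.37 ± 0.13 with the drug and by 0.52 ± 0.12 with SETBP1-D868N.

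Lactate carriers shifted toward Slc16a1 in both experiments. Slc16a3 made up 73.2% ± 1.3 of the 2 with luciferase and 55.7% ± 4.4 with SETBP1-D868N, a log2 ratio difference of −1.12 ± 0.16. It made up 84.1% ± 0.74 with DMSO and 73.6% ± 1.9 with PF-9363, a difference of −0.93 ± 0.081, and stayed the higher of the pair in all 4 groups. In all, 4 steps were held by 1 isoform in every group. Aldoa made up at least 95.8% of aldolase, Pgam1 at least 95.8% of the mutase pair, Eno1 at least 97.1% of enolase and Ldha at least 99.7% of lactate dehydrogenase. Within aldolase, Aldoc was lower against Aldoa by 0.72 ± 0.062 with SETBP1-D868N and by 2.67 ± 0.22 with PF-9363. Eno3 moved in opposite senses against Eno1, by −0.53 ± 0.14 and 1.46 ± 0.34. The leading isoform of each of 11 steps in 4 groups was the same when the longest transcript set the length in 43 of 44 cases. The exception was Pfkfb3 and Pfkfb4 with luciferase, which stood at 48.1% ± 0.74 and 49.5% ± 0.8.

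**Figure D4:**
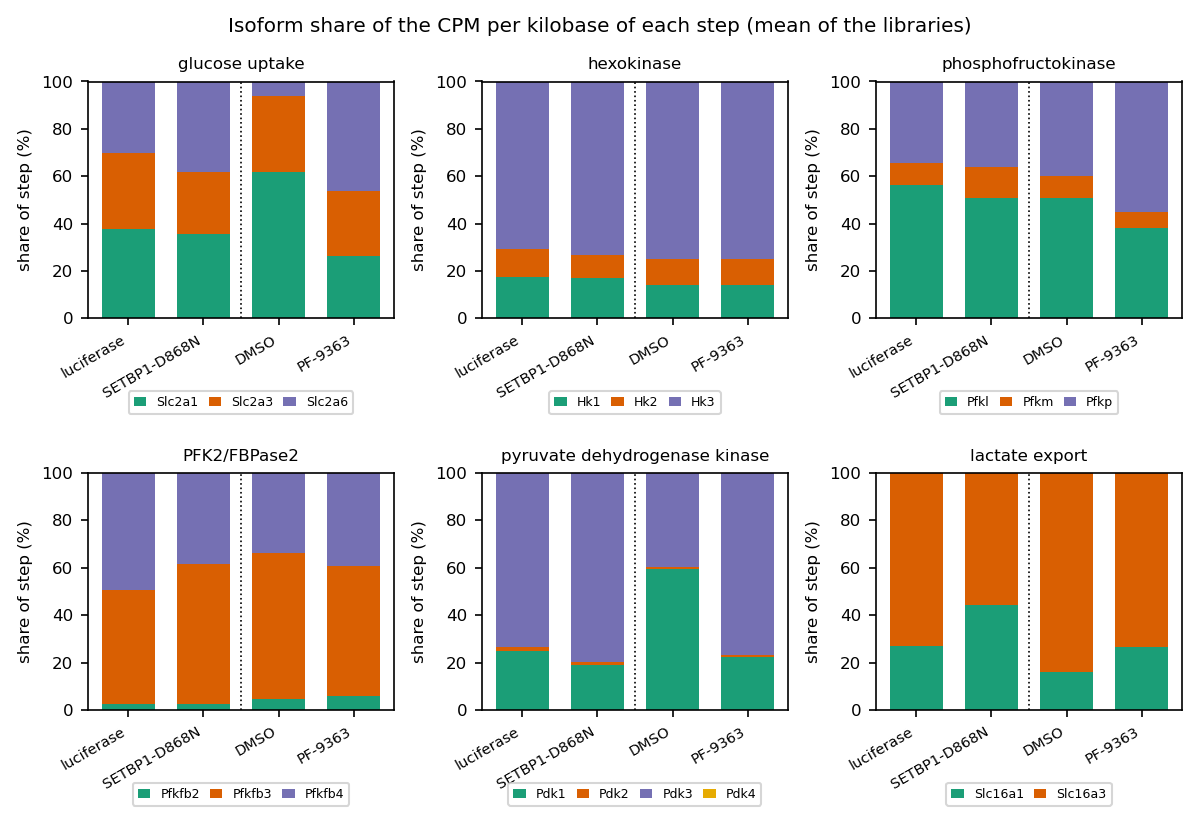
Share of each isoform in the summed CPM per kilobase of its step (vertical axis, percent, stacked to 100), as the mean of the libraries of each group, for 6 steps; the dotted line parts the 2 experiments, whose levels are not compared. With PF-9363 the Slc2a6, Pfkp and Pdk3 blocks grow and the Slc2a1, Pfkl and Pdk1 blocks shrink, while the hexokinase bars of DMSO and PF-9363 look alike.

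Since so many of the genes moved together with PF-9363, the 250 bases before their RefSeq starts (GRCm38.p6) were read. A window was found for 35 of the 36 (none for Slc2a3), and the one farthest upstream in that table was taken for each gene. The windows of 4 genes are printed: Pdk1, Pgk1 and Ldha, among the 5 largest falls, and Slc2a6, the only rise. Those of Aldoc and Tpi1, also among the 5, are not printed because they hold annotated exon. Capitals mark ACGTG and GCGTG on either strand, the core letters of the hypoxia response element, and CACGTG, the E-box letters that MYC and related factors read, within which ACGTG occurs on both strands. The windows are chr2:71872974-71873223, plus strand for Pdk1, chrX:106186850-106187099, plus strand for Pgk1, chr7:46845554-46845803, plus strand for Ldha and chr2:27027999-27028248, minus strand for Slc2a6, each 5′ to 3′ on the gene's strand. RefSeq and GENCODE starts differ for some genes: 6 of the 35 windows, that of Ldha among them, lie wholly inside the GENCODE span of their own gene, 11 in part and 18 outside it.
Pdk1: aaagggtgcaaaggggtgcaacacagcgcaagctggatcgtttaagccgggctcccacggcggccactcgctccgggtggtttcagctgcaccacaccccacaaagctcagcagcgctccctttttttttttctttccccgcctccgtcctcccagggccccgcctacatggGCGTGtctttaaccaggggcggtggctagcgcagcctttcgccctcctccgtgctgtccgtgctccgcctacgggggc
Pgk1: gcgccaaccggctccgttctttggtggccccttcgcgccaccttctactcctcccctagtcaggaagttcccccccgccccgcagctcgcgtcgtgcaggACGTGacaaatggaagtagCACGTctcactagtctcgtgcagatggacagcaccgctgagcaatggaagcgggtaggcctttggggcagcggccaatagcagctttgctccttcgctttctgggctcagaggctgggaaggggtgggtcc
Ldha: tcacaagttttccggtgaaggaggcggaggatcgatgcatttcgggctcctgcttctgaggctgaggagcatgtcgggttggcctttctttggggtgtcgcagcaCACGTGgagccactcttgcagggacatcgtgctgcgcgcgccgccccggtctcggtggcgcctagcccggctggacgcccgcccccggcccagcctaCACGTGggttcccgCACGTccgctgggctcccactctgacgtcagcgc
Slc2a6: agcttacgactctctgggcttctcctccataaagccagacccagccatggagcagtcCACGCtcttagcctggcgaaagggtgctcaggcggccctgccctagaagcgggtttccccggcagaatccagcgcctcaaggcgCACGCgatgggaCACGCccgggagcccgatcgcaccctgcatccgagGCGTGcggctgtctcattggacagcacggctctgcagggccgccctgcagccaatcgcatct

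The Pdk1 window held GCGTG 1 time, the Pgk1 window held ACGTG 2 times, and the Ldha window held CACGTG 2 times and ACGTG 5 times in all, counting both strands. Slc2a6, which rose, held GCGTG 4 times. Tpi1, with the fourth largest fall, held none of the 3, and neither did Hk1, Gpi1, Aldoa, Bpgm, Eno2, Pkm, Gys1 or Tigar. Of these windows, that of Aldoa lay wholly inside its gene's GENCODE span. Those of Pkm, Bpgm, Tpi1 and Tigar had 208, 149, 138 and 5 bases inside it. Among the windows of the glycolysis genes, ACGTG or GCGTG occurred in 26 of 35 windows (74.3%), against 38.6% of 27025 windows of the same length. CACGTG occurred in 4 of 35 windows (11.4%), against 6.04%. The windows were not matched for base composition, a match is no evidence of binding, and no binding was measured. Whether the letters bear on the changes with PF-9363 was not tested.

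Regulators of the route had calls in both directions. In the list of 19, 4 of 18 tested genes rose and 8 fell with SETBP1-D868N (median −0.10), where 24.5% of all genes rose and 22.7% fell. With PF-9363, 9 of 16 tested genes rose and 5 fell (median 0.24), against 36.6% and 39.4% of all genes. Egln3, a prolyl hydroxylase that marks hypoxia-inducible factors for decay and is itself known as their target, was at 162 ± 15.9 CPM with luciferase and 91.0 ± 13.3 CPM with SETBP1-D868N (mean ± SD). It fell by 0.83 ± 0.14 (edgeR adjusted p = 0.00886). In the second experiment it was at 541 ± 59.9 CPM with DMSO and 39.0 ± 2.73 CPM with PF-9363 and fell by 3.80 ± 0.082 (edgeR adjusted p = 5.09e-24), further than any of the 32. Egln1, its relative, fell by 0.47 ± 0.069 and 2.36 ± 0.078 (edgeR adjusted p = 0.00136 and 6.47e-21). Myc rose by 0.48 ± 0.028 with SETBP1-D868N (edgeR adjusted p = 1.03e-07) and fell by 2.55 ± 0.075 with PF-9363 (edgeR adjusted p = 4.9e-22), from 178 ± 6.12 to 30.3 ± 2.91 CPM. Whether these regulators had a part in the changes of the glycolysis genes was not tested.

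The mitochondrial steps that follow had calls in both directions. In the tricarboxylic acid cycle, 10 of 16 tested genes rose and 0 fell with SETBP1-D868N (median 0.11), where 24.5% of all genes rose and 22.7% fell, led by Suclg2 (0.32 ± 0.037), Idh3a (0.31 ± 0.0295) and Dlst (0.23 ± 0.023), the last 2 being subunits of the cycle's dehydrogenases. With PF-9363, 7 of 16 tested genes rose and 7 fell (median −0.073), shares near the 36.6% and 39.4% of all genes. The 3 largest falls were Suclg2 (−2.25 ± 0.10), Idh3a (−1.33 ± 0.089) and Suclg1 (−1.04 ± 0.085). Among 10 genes of pyruvate entry, 5 of 10 tested genes rose and 2 fell with SETBP1-D868N, including the pyruvate dehydrogenase subunits Dld (0.19 ± 0.025) and Dlat (0.19 ± 0.031). With PF-9363, 3 of 10 tested genes rose and 4 fell. Pdp1, the phosphatase that undoes the work of the PDKs, rose by 0.89 ± 0.12 (edgeR adjusted p = 1.92e-07), Mpc2, a subunit of the mitochondrial pyruvate carrier, rose by 0.33 ± 0.0897, and Pcx, pyruvate carboxylase, fell by 1.23 ± 0.19. In the pentose phosphate list, 3 of 8 tested genes rose and 3 fell with SETBP1-D868N and 2 of 8 tested genes rose and 4 fell with PF-9363.

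**Figure D5:**
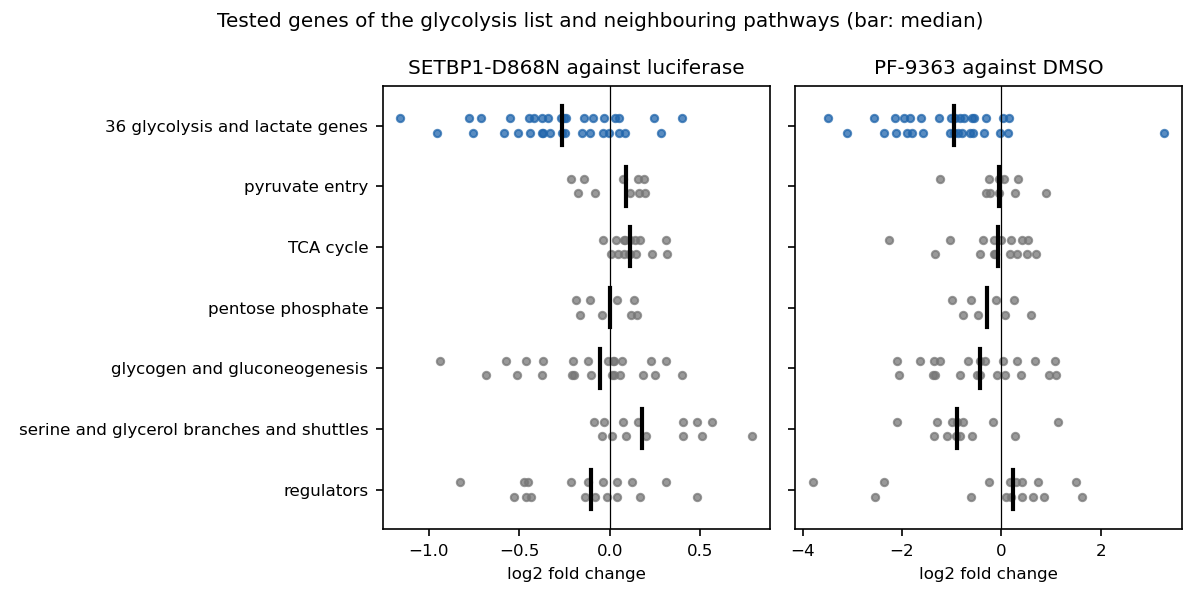
Log2 fold change of every tested gene of the glycolysis list (top row, blue) and of 6 neighbouring lists (grey) for SETBP1-D868N against luciferase (left) and PF-9363 against DMSO (right); each point is 1 gene and each black bar a median, and the horizontal scales differ. The glycolysis medians are −0.26 and −0.95, and those of the tricarboxylic acid cycle 0.11 and −0.073.

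Several values could hold reads of other genes. Gapdh has 42 near-identical copies among the counted symbols, which together held 0.490 to 0.906% of the joint counts with luciferase or SETBP1-D868N and at most 0.207% with DMSO or PF-9363. The copy of Pgam1 held 0.372 to 3.20% and at most 0.513%. Exons of 13 of the 36 overlap an exon of a gene on the other strand, among them Slc2a1, Hk1, Hk3, Gpi1, Pfkm, Pfkp, Aldoa, Tpi1, Gapdh, Pdha1 and Gys1, and how strand was counted is not given in the sources used here, so reads of such pairs cannot be told apart.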

How the data were processed

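Whole-number read counts, 1 row per gene symbol and 1 table per experiment, were deposited by the authors without normalization. Per the submitters' processing notes, STAR, DESeq2, GRCm38 and mm10 are named, with no role given. The counting program, annotation and strand handling are not given in the sources used here. Libraries were grouped by their titles, and 0 columns were left unmapped.

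In R 4.3.3, genes were kept by filterByExpr (minimum count 10, minimum total 15), scaled by TMM and tested within each experiment with edgeR 4.0.16 (glmQLFit with robust estimation, glmQLFTest), Benjamini-Hochberg adjusted over all genes tested and called at an adjusted p under 0.05. SE is the absolute log2 fold change over the square root of F, and 95% intervals use the normal quantile. Isoform ratios added 0.5 to each count and used exact two-sided permutation tests. Levels per kilobase and coordinates used GENCODE M21 (GRCm38). Copies were found with blastn at 95% identity over 300 bases.

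The 36 genes, lists and tests were chosen with earlier results of these data known. Every library is printed for genes called without overlap past 0.5 (SETBP1-D868N) or 1 (PF-9363) on the log2 scale and for the leading isoforms of a step, and for some others added after their values were seen. From each other list up to 3 genes per comparison were named, by size of change among those called without overlap at 5 CPM or more, with Bsg and Egln1 repeated where they recur. Alternatives were RLE, library size, 2 other filters, DESeq2 1.42.0, limma-voom (3.58.1), no robust estimation, a replicate block, each library left out, 2 counts added and longest transcripts.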

Additional observations from a re-analysis of the deposited data

Results flagged for a closer look

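Each of the 32 genes tested in the second experiment was examined in each group of 4 libraries, 64 sets of values in all, for a library standing apart from the other 3 by Dixon's criterion (gap over range above 0.829). Chance gives about 1 in 20. Hexokinase Hk1 stood at 407 CPM in DMSO 4, against 363 to 368 CPM in the other DMSO libraries (gap over range 0.896). Phosphofructokinase Pfkl stood at 265 CPM in DMSO 2, against 293 to 297 CPM in the others (0.887). Without DMSO 4 the fall of Hk1 and without DMSO 2 that of Pfkl were still called.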

How the results depend on the processing

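With SETBP1-D868N, 22 falls and 4 rises became 19 and 7 with library size alone, 20 to 24 and 3 to 4 under the other settings, and 12 to 24 and 3 to 4 with 1 library left out. Of the 26 calls, 20 held in all 8 settings that kept every library. With PF-9363, 27 falls and 1 rise became 27 or 28 and 1, and 27 and 1 to 2 with 1 library left out (2 without DMSO replicate 4, Slc2a3 being the second). Counts of all genes called stayed within 1.5 times. Of the isoform ratios, 13 to 16 (13 in full) and 8 to 9 (8 in full) did not overlap with 1 library left out.

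Only genes that were not called changed sign. With library size alone these were Pdk3 (0.0101), Bpgm (0.046) and Hk1 (0.017) with SETBP1-D868N, and Pfkfb2 (−0.088), Slc2a3 (−0.11) and Pfkfb4 (−0.21) with PF-9363, where that scaling lowers the median of all genes by 0.23. Pfkfb4 was at −0.000495 with no filter beyond 1 count. With 1 library left out, Bpgm ranged from −0.034 to 0.022 (SETBP1-D868N) and Eno3 from −0.31 to 0.21 (PF-9363). For sign changes other than under library size the cause was not tested.

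The replicate block gave 24 falls and 3 rises with SETBP1-D868N and 27 and 1 with PF-9363, and 3416 higher and 3224 lower and 4885 higher and 5239 lower calls over all genes. Libraries with the same number did not deviate together (correlations −0.097 to −0.037 and −0.040 to 0.0075), so the numbers are taken as names. At the lower depth of the second experiment, Eno2, Ldhb, Pdk2 and Pdk4 were not tested. Pdk4 was not tested in the first either, where it had at most 3 counts in libraries of at least 60147266 counts.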

Other observations

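In the branch from 3-phosphoglycerate to serine and glycine and the redox shuttles, 9 of 14 tested genes rose and 1 fell with SETBP1-D868N (median 0.18). Of all genes, 24.5% rose and 22.7% fell with SETBP1-D868N, and 36.6% rose and 39.4% fell with PF-9363. Shmt1 and Shmt2, which move a carbon from serine to folate, rose by 0.56 ± 0.036 and 0.51 ± 0.027 on the log2 scale (edgeR adjusted p = 2.41e-07 and 6.56e-08). Psat1, an enzyme of serine synthesis, rose by 0.48 ± 0.025 (edgeR adjusted p = 5.07e-08). With PF-9363, 2 of 13 tested genes rose and 11 fell (median −0.89), with Shmt1 at 46.7 ± 5.19 CPM with DMSO and 10.9 ± 1.01 CPM with PF-9363 (mean ± SD), Mdh1, the cytosolic malate dehydrogenase, at −1.35 ± 0.077 and Psph, the last enzyme of serine synthesis, at −1.29 ± 0.086.

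In glycogen metabolism and gluconeogenesis, 5 of 24 tested genes rose and 10 fell with SETBP1-D868N, among them Ppp1r3b (−0.69 ± 0.064) and Ppp1r3d (−0.51 ± 0.072), which encode glycogen-targeting phosphatase subunits. With PF-9363, 6 of 22 tested genes rose and 13 fell, led by Pgm1, which links glucose 1- and 6-phosphate (231 ± 11.1 CPM with DMSO and 54.0 ± 4.28 CPM with PF-9363, mean ± SD), Pygm (−2.07 ± 0.20) and Phkb (−1.64 ± 0.074). Of the paralogs outside the 36, 0 of 13 tested genes rose and 4 fell with SETBP1-D868N, and 3 of 11 tested genes rose and 6 fell with PF-9363. For both lists the shares over all genes were 24.5% higher and 22.7% lower with SETBP1-D868N, and 36.6% and 39.4% with PF-9363. Adpgk, an ADP-dependent glucokinase, fell by 0.65 ± 0.071 with SETBP1-D868N (edgeR adjusted p = 0.000555), and Slc2a8, a further glucose carrier, by 2.51 ± 0.22 with PF-9363 (edgeR adjusted p = 3.49e-11).

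In the pentose phosphate route, G6pdx and Pgd, its 2 NADPH-yielding dehydrogenases, fell by 0.19 ± 0.023 and 0.16 ± 0.025 with SETBP1-D868N, while with PF-9363 H6pd fell by 1.00 ± 0.074 and Rpia by 0.78 ± 0.075.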
